A study of Drosophila melanogaster with 6 samples.

Results

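The Dwg summits on the X chromosome are the 1 bp positions of strongest Dwg enrichment that lie on X in 2 summit lists from S2R+ cells. They were chosen by their chromosome name alone. The list called against the IgG control (the IgG list) holds 1823 of them among 10950 summits in all (16.6%), and that called against input (the input list) holds 2301 among 12971 (17.7%). They are set here against the summits on 3 autosomal arms, 2L, 3L and 3R, which number 6783 in the IgG list and 7946 in the input list. Of 6 libraries, 2 were anti-Flag ChIP of Flag-Dwg, 2 were made with IgG control antibody and 2 with input DNA. Both lists rest on the same anti-Flag ChIP and differ in the control, so a result seen in both is not replicated. Every library came from S2R+ cells that expressed Flag-Dwg, so no library came from cells without the tagged protein, and the Dwg bound to chromatin was followed through its tag. The antibody label of the input libraries gives dwg1, whereas their titles call them input. Genotype, time and treatment do not differ between the libraries as far as the labels say.

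Dwg, also known as Zw5, is a zinc finger protein of Drosophila that binds insulators, DNA elements that can keep an enhancer from acting on a promoter beyond them or mark the edge of a chromatin domain. Its own gene, dwg, lies on X, as do the white and Notch loci, where insulator and boundary elements have long been studied. In male flies the single X is bound by the dosage compensation complex, which carries the acetyltransferase encoded by mof and the RNAs roX1 and roX2, and which raises transcription of X-linked genes. S2R+ is a line of embryonic origin whose balance of X to autosomes is of the male type. The DNA copy number of each arm was not measured here, so a property of Dwg on X and a lower number of X copies cannot be told apart in any difference of score or summit number given below.

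The summits themselves are best seen in sequence. The windows below reach 50 bp to each side of a summit on the plus strand of dm6. They were picked from the highest summits on X whose window touches no UTR. The CGATA motif on either strand is in capitals, because that motif was more frequent at summits on X than on the autosomes. The promoter summits near CG4678 (324.0), r (260.5) and Mnt (242.6) meet the same rule and score above that of RpL37-1 (236.3). Their windows hold no CGATA and are not shown. Snx27 (chrX:5738040-5738140) and RpL37-1 (chrX:15139387-15139487) are promoter summits that hold the motif. Top1 (chrX:15323424-15323524) is a GC-rich promoter summit without it. CG14207 (chrX:19606648-19606748) has its summit in an intron, and the summit nearest to CG3224 (chrX:6660085-6660185) lies between genes.
Snx27: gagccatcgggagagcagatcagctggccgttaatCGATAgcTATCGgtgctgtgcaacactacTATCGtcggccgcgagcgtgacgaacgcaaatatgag
RpL37-1: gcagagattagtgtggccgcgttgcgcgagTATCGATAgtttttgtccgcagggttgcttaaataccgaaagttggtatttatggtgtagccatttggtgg
Top1: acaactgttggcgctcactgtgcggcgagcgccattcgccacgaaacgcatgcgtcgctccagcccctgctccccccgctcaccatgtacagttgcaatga
CG14207: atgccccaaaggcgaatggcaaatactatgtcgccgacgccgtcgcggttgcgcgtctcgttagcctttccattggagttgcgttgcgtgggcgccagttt
CG3224: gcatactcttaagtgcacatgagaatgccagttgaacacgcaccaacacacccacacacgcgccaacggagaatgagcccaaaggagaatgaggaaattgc
The Snx27 window holds CGATA 3 times on either strand and is 55.4% GC. In the RpL37-1 window the motif stands inside the palindrome TATCGATA, and the window is 47.5% GC. The Top1 and CG14207 windows are 62.4% and 58.4% GC and hold none of the 6 motifs that were searched. The CG3224 window is 50.5% GC and holds a CACACA repeat.

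Most of the 10 strongest summits on X lay within 100 bp of a gene start. The score of a summit is the −log10 of its q-value from the peak caller, so a score of 20 or more stands for a q-value of 1e-20 or less. The highest score in the IgG list, 667.2, was at position 19480263, 4 bp downstream of a start of Naa15-16, the auxiliary subunit of an N-terminal acetyltransferase. The next was 515.8 at 1873498 in the coding sequence of Pgam5, a mitochondrial phosphatase, and it also falls in the promoter window of Vps26, a retromer subunit. Snx27, a sorting nexin that works with retromer, had 480.8 at 5738090, 59 bp upstream of its start. LPCAT, an enzyme of phospholipid remodelling, had 463.7 at 9580023. The adenine nucleotide translocase gene sesB had 436.7 at 10786946. Next came summits near CG5541 (385.7, inside the long gene hiw), the TBP-related factor Trf2 (373.7) and bcn92 (348.0). The last of the 10 lay near the Rab exchange factor Crag (346.5) and Pat1 (345.8). Of these 10, Pat1 alone was not among the 10 highest on X in the input list, where Top1, the type I topoisomerase, took a place with a score of 920.4. Naa15-16 also led that list, with 1826.

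Summits were not sparser on X per gene, but they had lower scores. The IgG list held 77.7 summits per Mb on X and 81.2 per Mb on the autosomes, a ratio of 0.957 (95% interval 0.908 to 1.008, exact conditional test of 2 rates, two-sided, exact p = 0.0929). The autosomal arms held 78.5 (2L), 79.3 (3L) and 84.8 (3R) per Mb, and X was below 3R alone (ratio 0.916, Benjamini-Hochberg adjusted exact p = 0.0112 over 3 arms), with ratios of 0.989 and 0.980 against 2L and 3L (adjusted exact p = 0.741 for both). The input list went the other way, with 98.0 per Mb on X and 95.1 per Mb on the autosomes (ratio 1.031, exact p = 0.202). The density in the IgG list fell below that of the autosomes beyond counting error when weak summits were left out: at a score of 20 or more, X held 25.6 per Mb and the autosomes 30.0 per Mb (ratio 0.852, exact p = 0.000379). Leaving out the 5 Mb of each arm nearest the centromere gave 85.2 against 92.3 per Mb (ratio 0.922, exact p = 0.00393). Ratios without 2L (0.944, exact p = 0.0372) and without 3L (0.945, exact p = 0.0427), and with close summits merged (0.947, exact p = 0.0451), also passed the threshold. These tests treat summits as independent and cover counting error only, since the lists give no value per library.

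X carries fewer protein-coding genes per Mb than the autosomes, 93.5 against 105.5. Per protein-coding gene there were 0.830 summits on X and 0.769 on the autosomes, a ratio of 1.079 (1.024 to 1.137, exact p = 0.00423, the same exact test). The input list gave 1.048 and 0.901 summits per gene (ratio 1.163, exact p = 3.33e-10). In the IgG list the difference rested on 2L, which had 0.695 summits per gene: without 2L the ratio was 1.036 (exact p = 0.199), and at a score of 20 or more it was 0.961 (exact p = 0.394). Along the chromosome, summits followed gene starts. In 23 bins of 1 Mb, X held 25 to 145 summits (median 72), and Pearson's r across bins between summits and coding gene starts was 0.859. In 83 autosomal bins the range was 0 to 196 (median 78) with r = 0.818. These correlations describe neighbouring bins of the same lists and carry no test.

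**Figure D1:**
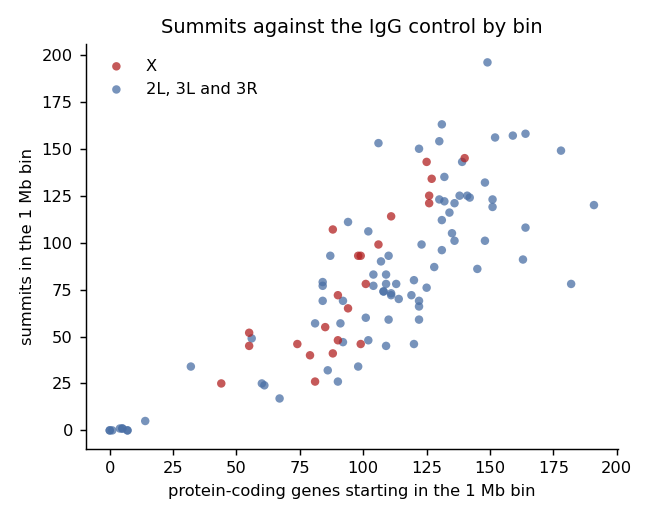
Each point is a bin of 1 Mb, with the number of protein-coding genes that start in it on the x axis and the number of summits against the IgG control on the y axis, for 23 bins on X and 83 on 2L, 3L and 3R. Bins on X range from 25 to 145 summits and lie within the cloud of autosomal bins.

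Scores were lower on X. The median score was 11.7 on X and 13.3 on the autosomes (13.9 on 2L, 12.9 on 3L and 13.2 on 3R). The gap widened toward the top of the list: the upper quartile was 28.2 on X and 33.9 on the autosomes, the 90th percentile was 65.7 on X and 79.9 on the autosomes, while the lower quartiles were 5.92 and 5.96. On X 601 summits (33.0%, Wilson interval 30.8 to 35.2%) had a score of 20 or more, against 37.0% (35.9 to 38.2%) on the autosomes, a difference of −4.04 percentage points (−6.45 to −1.57, Fisher's exact test, two-sided, exact p = 0.00145). The input list gave medians of 18.6 on X and 21.4 on the autosomes, and 47.4% against 51.7% at 20 or more (−4.38 points, exact p = 0.000221). In the ranking of the 4 arms X held 11 of the 100 highest summits and 175 of the 1000 highest (17.5%), against 21.2% of all summits on these arms.

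Among the 4 gene features, the score difference passed the test in promoters alone. Among promoter summits (from 1000 bp upstream to 100 bp downstream of a protein-coding start), the median was 15.6 on X and 18.6 on the autosomes, and 42.5% on X against 47.6% on the autosomes had a score of 20 or more (−5.14 points, −8.82 to −1.40, adjusted exact p = 0.0291 over 4 gene features). This call was lost without 2L (−4.77 points, adjusted exact p = 0.0669), with runs of summits merged (−4.24 points, 0.132) and among summits with a score of at least 10 (−3.33 points, 0.280). In introns the medians were 9.90 on X and 12.2 on the autosomes, and the difference at 20 or more was −3.75 points (−8.61 to 1.47, adjusted exact p = 0.337). Exon summits had medians of 8.33 on X and 8.21 on the autosomes, and summits between genes 10.4 and 10.2, with differences at 20 or more of −2.50 points (−6.45 to 1.76) and 1.89 points (−8.99 to 14.8) that did not pass (adjusted exact p = 0.337 and 0.766). The split by gene feature was added after the overall difference was seen, and whether the features differ from each other in it was not tested. Summits within 50 bp of a start had medians of 25.1 on X and 29.8 on the autosomes. Those between head-to-head starts had 27.9 on X, against 32.1, 43.4 and 33.5 on 2L, 3L and 3R.

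**Figure D2:**
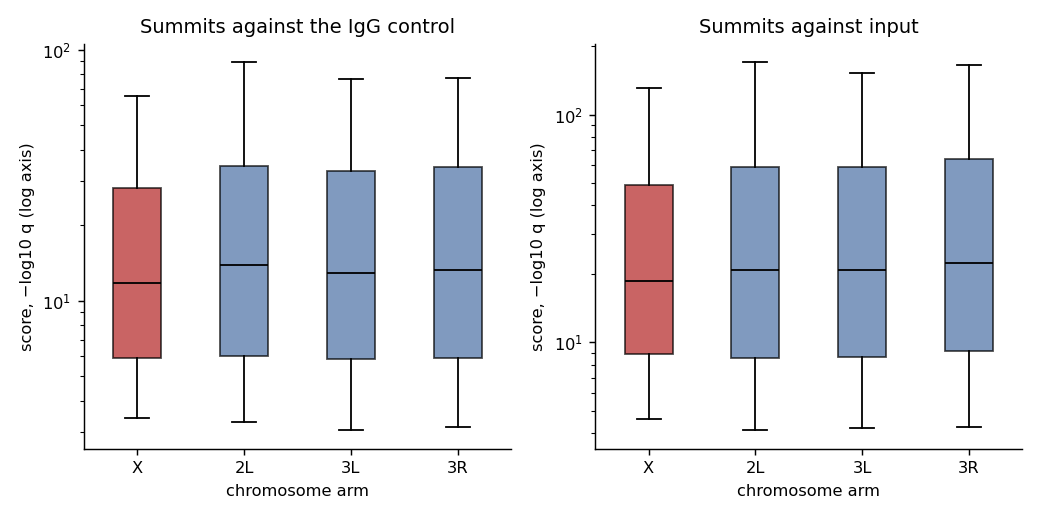
Scores of the summits on each arm as −log10 q on a log axis, for the IgG list (left) and the input list (right); boxes span the quartiles around the median and whiskers the 10th to the 90th percentile. X has the lowest median in both lists, 11.7 and 18.6, with a lower quartile close to those of the other arms.

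Summits of X lay more often in exons and less often between genes than those of the autosomes, and the promoter shares did not differ beyond counting error. Of the X summits, 869 (47.7%) lay in a promoter window, against 47.3% of the autosomal summits, a difference of 0.344 points (−2.23 to 2.93, Fisher's exact test, adjusted exact p = 0.812 over 4 features). Promoter windows make up 11.8% of the bases of X and 12.2% of those of the autosomes. Exons outside promoters held 28.0% on X and 23.9% on the autosomes (4.06 points, 1.80 to 6.39, adjusted exact p = 0.000877), where they make up 23.3% and 21.2% of the bases. Against those base shares, the exon share was 1.20-fold on X and 1.13-fold on the autosomes (1.10 on 2L, 1.21 on 3L and 1.08 on 3R). X was thus not above 3L by this measure in the IgG list. In the input list the exon share was 1.20-fold on X, and 1.05 (2L), 1.13 (3L) and 1.01 (3R) on the autosomal arms. Introns held 20.9% and 22.6% (adjusted exact p = 0.181). Between genes lay 63 X summits (3.46%), against 6.21% of the autosomal summits (−2.75 points, −3.71 to −1.66, adjusted exact p = 9.64e-06), where 21.6% of the bases of X and 27.1% of those of the autosomes lie. Relative to those base shares, the share of summits between genes was 0.160-fold on X and 0.229-fold on the autosomes. The input list gave exon and intergenic differences of 5.46 and −3.03 points (adjusted exact p = 1.86e-07 for both). Among summits with a score of 20 or more neither difference passed the threshold (2.67 and −1.58 points, adjusted exact p = 0.239 for both).

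Positions relative to starts did not differ beyond counting error. Within 50 bp of a start lay 16.1% of the X summits and 16.0% of the autosomal summits (difference 0.146 points, −1.70 to 2.10, exact p = 0.886). The median position relative to the nearest start was 127 bp downstream on X and 129 bp downstream on the autosomes. Between head-to-head starts at most 1000 bp apart lay 121 X summits (6.64%), against 401 autosomal summits (5.91%; difference 0.726 points, −0.481 to 2.07, exact p = 0.246). Neighbouring summits were a median of 2017 bp apart on X and 1900 bp apart on the autosomes.

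**Figure D3:**
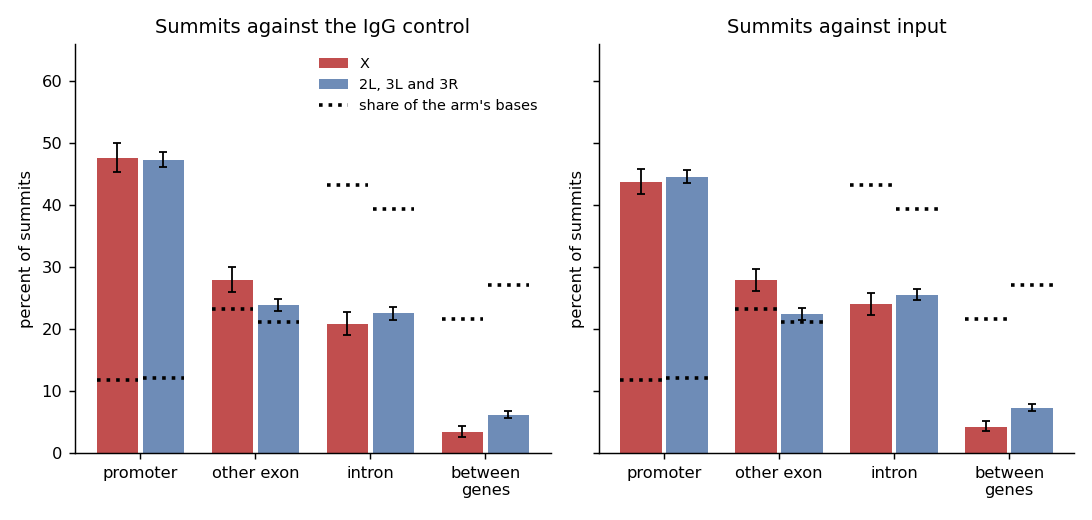
Percent of summits in promoter windows, other exons, introns and between genes on X and on 2L, 3L and 3R, with Wilson intervals as error bars and the share of the arm's bases in each feature as dotted lines, for the IgG list (left) and against input (right). The bars for exons are higher on X and those between genes lower, 3.46% against 6.21% in the IgG list.

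The exon difference lay mainly in 3′ UTRs. After the exon shares had been seen, exon summits outside promoters were split by the kind of exon. In 3′ UTRs that are not coding or 5′ UTR in another transcript lay 100 X summits (5.49%), against 155 autosomal summits (2.29%), a difference of 3.20 points (2.17 to 4.39, Fisher's exact test, adjusted exact p = 1.12e-10 over 4 kinds of exon). Such sequence makes up 5.60% of the bases of X and 3.88% of those of the autosomes. Per Mb of it, X held 76.1 summits and the autosomes 47.8, a ratio of 1.59 (1.23 to 2.06, exact test of rates, exact p = 0.0004). The density on X was near the 77.7 per Mb of the whole of X. That on the autosomes was below their 81.2 per Mb. The 3 autosomal arms held 40.7 (2L), 51.9 (3L) and 49.5 (3R) per Mb, and the ratio was 1.50 to 1.66 when each of them was left out in turn (exact p at most 0.00298). In the input list the densities were 109.5 on X and 60.7 on the autosomes (ratio 1.80, exact p = 1.6e-07). With a score of 20 or more there were 25 such summits on X and 42 on the autosomes, and the ratio of 1.47 did not pass the threshold (exact p = 0.138). Coding sequence held 17.0% of the summits on X and 16.5% on the autosomes (adjusted exact p = 0.645), and in the input list its difference of 1.82 points passed (adjusted exact p = 0.0455). The share in 5′ UTRs was 4.72% on X and 3.60% on the autosomes (adjusted exact p = 0.0439), and in other exons it was 0.823% on X and 1.55% on the autosomes (adjusted exact p = 0.0356). At a score of 20 or more the 3′ UTR share still differed, by 2.49 points (adjusted exact p = 0.00186), whereas the 5′ UTR and other exon shares did not pass (adjusted exact p = 0.191 and 0.427). Neither of them passed without 3R, without the proximal 5 Mb or with promoter windows of 500 or 1000 bp to either side. The 5′ UTR difference was 0.0946 and 0.0302 points with these windows and also missed the threshold in the input list and among summits of both lists, and the other exon difference missed it at scores of at least 5 and 10 and without 3L.

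The 100 summits in 3′ UTRs on X lay in 81 genes or overlapping gene pairs, of which 67 had 1 summit. The voltage-gated sodium channel gene para had 4, and they were its only summits: 127.1 at 16457433, 59.7 at 16456656, 52.1 at 16458758 and 45.1 at 16457907. All lay at the far end of the gene from its start. The potassium channel gene eag had 3, from 3.04 to 76.1, and mthl1, which encodes a receptor of the Methuselah family, had 3, from 3.41 to 61.8. The co-repressor gene Smr had a summit of 79.1 at 12684897. The ubiquitin ligase gene hiw, a regulator of synapse growth, had 2, of 62.6 and 6.29. Among the lower ones, csw, a phosphatase of receptor tyrosine kinase signalling, had 2 (29.7 and 14.7) and the potassium channel subunit gene Hk had 2 (13.9 and 6.24). The median score over the 3′ UTR summits was 9.73 on X and 11.1 on the autosomes.

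**Figure D4:**
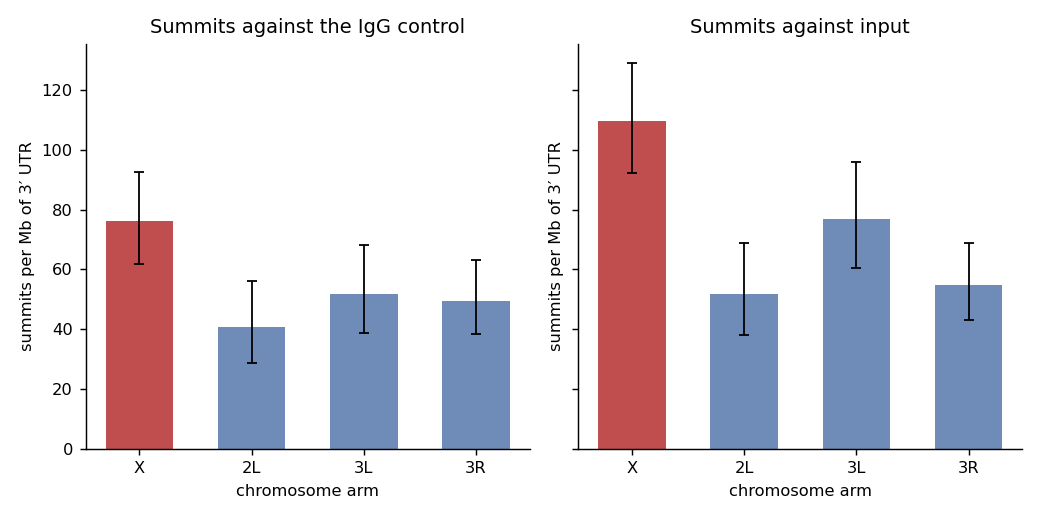
Summits per Mb of 3′ UTR outside promoter windows on each arm for the IgG list (left) and against input (right), with exact Poisson intervals as error bars. X stands at 76.1 and 109.5, above each autosomal arm in both lists.

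Most X summits were found in both lists. Since both rest on the same ChIP, this overlap describes the choice of control. Within 100 bp of a summit against input lay 1608 of the X summits against the IgG control (88.2%), and 86.6% of the autosomal ones (difference 1.59 points, −0.157 to 3.22, exact p = 0.078). Seen from the input list, 69.9% of the X summits and 73.9% of the autosomal summits had a partner (−4.05 points, −6.19 to −1.97, exact p = 0.000136). The input list was 1.26 times as long as the other on X and 1.17 times as long on the autosomes. Its 693 unpaired X summits had a median score of 8.37, against 30.3 for the paired ones. The 215 X summits found against the IgG control alone had a median of 5.03.

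Summits on X and on the autosomes both lay in GC-rich sequence. In windows of 50 bp to each side of the summit, GC content was 53.2% on X and 52.3% on the autosomes, against 42.5% and 42.0% of all bases of these arms. Every 6-mer, with both strands merged, was compared with a window 350 bp away by an exact McNemar test. At X summits 590 (28.4%) were more frequent and 459 less frequent than beside them. The leading ones were GC-rich: GCCGCC was in 14.9% of X summit windows and 5.21% of X flanks. The most depleted was AATATA, in 2.03% of X summit windows and 14.2% of X flanks. Both sets of arms shared 570 of the more frequent 6-mers, which is 570 of 590 on X and 570 of 926 on the autosomes, where more summits were tested. The balance of summit to flank differed between X and autosomes for 1 6-mer (0.0481%), with 116 at an unadjusted p under 0.05. That 6-mer, CTATCC, was in 2.85% of X summit windows and 1.10% of X flanks, and in 1.44% of autosomal summit windows and 1.96% of autosomal flanks (adjusted exact p = 0.0245). In the input list, with narrower windows, with summits of 20 or more and with a farther flank its adjusted exact p was 0.608 to 1.

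Among 6 motifs searched on both strands, CGATA was in 14.9% of X windows and 12.2% of autosomal windows (2.76 points, 1.00 to 4.63, adjusted exact p = 0.00607). CGATA is the core of the sites bound by the boundary factor BEAF-32 and is part of those of the replication-related factor DREF. Over windows of the same length tiled along the arms it was in 11.8% on X and 11.0% on the autosomes, and over windows at gene starts in 28.6% on X and 22.5% on the autosomes. The longer palindrome TATCGATA, which contains CGATA, was in 1.32% of X windows and 0.560% of autosomal windows (adjusted exact p = 0.00607). Its tiled shares were 0.350% on X and 0.241% on the autosomes. Over windows at gene starts its shares were higher than at summits, 5.83% on X and 4.19% on the autosomes. In the input list its difference did not pass (adjusted exact p = 0.104). CGATA passed in that list (2.74 points, adjusted exact p = 0.00396), but not in windows of 25 bp (1.01 points, adjusted exact p = 0.318). GAGAG, a motif of GAGA factor and of dosage compensation entry sites, was in 15.3% of X windows and 14.6% of autosomal windows (adjusted exact p = 0.576). CACACA was in 11.6% on X and 11.8% on the autosomes, GGTCACACT in 2.08% and 1.43%, and TATAAA in 2.47% and 3.27% (adjusted exact p = 0.838, 0.111 and 0.121). A match is a string of letters and does not show that a factor was bound.

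Turning to X-linked genes, 38% of the 2196 protein-coding genes (835) had a summit in a promoter window, against 36.3% on the autosomes (1.68 points, −0.563 to 3.96, Fisher's exact test, exact p = 0.144). The input list gave 42.3% on X and 38.96% on the autosomes (3.39 points, exact p = 0.00372). Without 3R the difference in the IgG list passed as well (3.13 points, exact p = 0.0104). Counting the gene and 1000 bp around it, 54.3% of X genes (1193) had a summit. Of all X genes, 460 had 1 summit, 341 had 2, 190 had 3, 99 had 4 and 103 had 5 or more. The genes with the most were hiw (19), the Rab exchange factor gene spri (17), RhoGAP18B (15), CG5445 (13) and Tomosyn, which acts on vesicle fusion (12). The first 2 of these are 53.3 and 95.4 kb long. A summit near 2 genes counts for both. The counts over a gene and 1000 bp around it were not adjusted for gene length.

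Among the classical insulator loci on X, 1 of 4 genes had a summit in the IgG list, beside 54.3% of all X genes. The genes y, ac and w had none in either list within the gene or 1000 bp around it. The receptor gene N had 2 in the IgG list, neither in a promoter window, and the higher, 20.3 at 3172816, lay beyond the 3′ end of the gene. Next to it, the promoter window of the follicle cell gene Fcp3C held a summit of 108.5 at 3175160. The gene dwg itself had no summit, and neither had mof or roX1. roX2 had 3, the highest 32.0 at 11579076, 11 bp downstream of its start (68.3 in the input list). Of these 3 dosage compensation genes 1 had summits, a number too small to set against the 54.3% of all X genes.

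**Figure D5:**
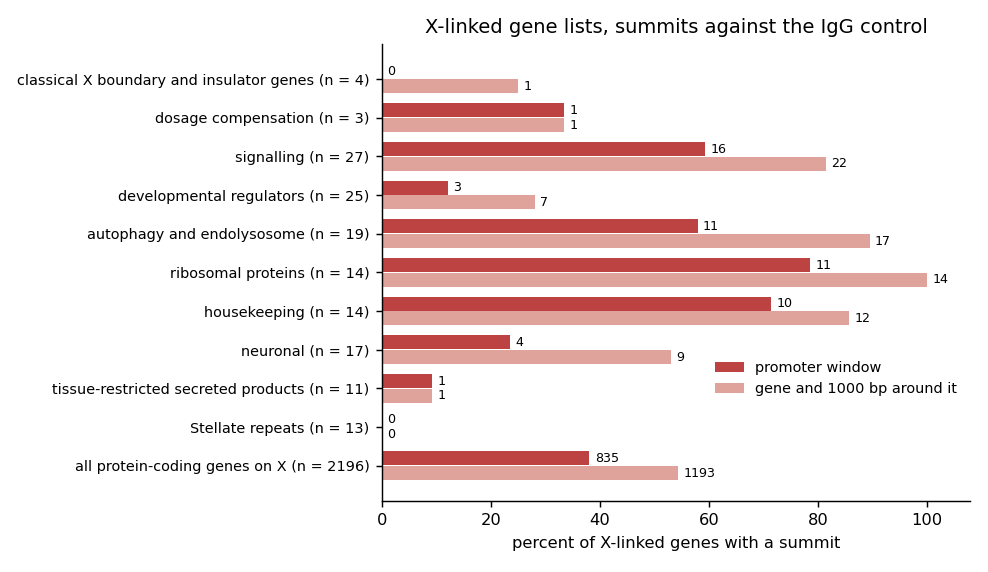
Percent of the genes of 10 X-linked lists, and of all protein-coding X genes, with a summit against the IgG control in a promoter window (dark) or in the gene and 1000 bp around it (light), with the number of genes beside each bar. Ribosomal protein and housekeeping genes stand at 11 of 14 and 10 of 14 by promoter window, and developmental regulators at 3 of 25, beside 835 of 2196 for all X genes.

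Ribosomal protein and housekeeping genes, which are used in all cells, had the highest shares of members with a promoter summit among the lists. All 14 ribosomal protein genes of the list had a summit within 1000 bp, and 11 of 14 had one in a promoter window, beside 54.3% and 38% of all X genes. Their highest scores ran from 3.04 (RpS10b) to 201.1 (RpS5a), with a median of 17.3, below the median of 25.3 over all X genes with a summit. RpS19a had 86.1, RpS6 82.9 (inside its coding sequence) and sta 62.4. The list leaves out RpL37-1, whose promoter summit of 236.3 is higher than that of any listed member. Of 14 housekeeping genes 12 had a summit and 10 a promoter summit, with a median highest score of 93.3. The median gene length was 1.66 kb in the ribosomal protein list and 5.03 kb in the housekeeping list, against 2.52 kb for all X genes. Top1 had 276.4, the nuclear pore gene Nup93-1 216.2 and Pgd, an enzyme of the pentose phosphate pathway, 193.2. The Nup93-1 summit lay 465 bp upstream of the start of that gene and nearer to that of Clic, 54 bp upstream of it. Polr2A, the largest subunit of RNA polymerase II, had 183.6, the proteasome gene Rpt4 122.1 and Zw, glucose-6-phosphate dehydrogenase, 78.6. Act5C and Gapdh2 had none in the IgG list.

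Of 27 signalling genes on X, 22 had a summit and 16 a promoter summit (81.5% and 59.3%, beside 54.3% and 38% of all X genes). Their median length was 6.41 kb, against 2.52 kb for all X genes. The growth regulator Myc had the highest (134.1). It was followed by the TGF-β effector Smox (81.5), the Wnt pathway gene dsh (72.6), the MAP kinase kinase Dsor1 (70.2), the phospholipase C gene sl (66.1), the Hedgehog pathway kinase fu (58.5), the Hippo pathway gene Mer (57.7) and Raf (53.0). The β-catenin gene arm had 42.1 and the kinase gene sgg 37.6. The secreted ligands upd1, upd2 and Pvf1 and the antagonist sog had none in either list. The ligand gene upd3, in contrast, had a promoter summit of 4.68, and Ilp6 had a summit of 7.71 outside its promoter windows. In the input list the highest summits of upd3 and Ilp6 were 20.2 and 19.7. CycD had none in the IgG list but a summit of 19.9 in the input list.

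Of 19 genes of autophagy and the endolysosome that matched, from 20 listed, 17 had a summit and 11 a promoter summit (89.5% and 57.9%, beside 54.3% and 38% of all X genes). The median highest score was 47.8 and the median gene length 3.4 kb, against 2.52 kb for all X genes. Vps26 stood first with the summit it shares with Pgam5 (515.8). Vps4, an ATPase of membrane remodelling, had 177.5, the V-ATPase regulators Rbcn-3B and Rbcn-3A had 155.6 and 115.9, and Rab39 had 101.8. The clathrin adaptor AP-1gamma had 98.1 and the dynamin gene shi 79.4. Of the Atg genes on X, Atg8a, the ubiquitin-like protein of the autophagosome, had 2 summits. The higher, 47.8, lay beyond the 3′ end of the gene, in the promoter window of another gene. The one in the promoter window of Atg8a had 18.8. Atg5, which acts in the conjugation of Atg8 proteins, had a promoter summit of 11.0. It lay 507 bp upstream of the Atg5 start, in the 5′ UTR of another gene. Atg101 and dor had none in either list.

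Of 25 developmental regulators, 7 had a summit and 3 a promoter summit (28% and 12%, beside 54.3% and 38% of all X genes). All are transcription factor genes but Sxl, which encodes an RNA-binding splicing regulator and is 1 of the 7 and 1 of the 3. Those with a summit had highest scores of 47.3 (br), 28.0 (sd), 27.5 (brk), 25.2 (Sxl), 18.3 (ewg), 5.03 (disco-r) and 4.67 (ct). The brk summit lay beyond the 3′ end of the gene, in an intron of another gene. The proneural genes ac, sc, l(1)sc and ase and the segmentation genes gt, btd and run had none. In the input list 9 of the 25 had a summit. The median length of these 25 genes was 10.1 kb, against 2.52 kb for all X genes. Of 17 neuronal genes 9 had a summit (52.9%, close to the 54.3% of all X genes) and 4 a promoter summit (23.5%, beside 38%). In the input list 64.7% of them had a summit and 41.2% a promoter summit, beside 59.2% and 42.3% of all X genes. The lower promoter share was thus not seen in that list. Their median length was 42.8 kb, against 2.52 kb for all X genes. Among them para stood at 127.1 and the adenylyl cyclase gene rut at 112.4, and per, norpA, Nrg, cac, fne, na, Sh and nAChRalpha7 had none in the IgG list. Of 11 genes of secreted products restricted to one tissue, among them the yolk and chorion protein genes, Fcp3C alone had a summit in the IgG list (9.09%, beside 54.3% of all X genes), and in the input list Yp3 had one as well (8.33). The 13 Stellate genes had none. They are near-identical copies and the authors kept unique reads, so an absence of Dwg and an absence of mapped reads cannot be told apart there.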

How the data were processed

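Chromatin from S2R+ cells expressing Flag-Dwg was precipitated with anti-Flag or IgG antibody, or kept as input, and sequenced. The authors trimmed reads with Trim Galore 0.6.4, mapped them to dm6 using local alignment in Bowtie2 2.3.5.1, filtered for unique reads by SAMtools 1.6, and ran MACS2 2.2.6 on read pairs. HOMER 4.11 is also named in their notes. Whether replicates were pooled is not stated. The deposited lists give 1 bp summits with a −log10 q-value as score (lowest 1.31 and 1.3). They hold no value per library, so the depth is unknown and replicate error could not be computed.

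Gene models were those of Ensembl 115 (dm6 coordinates), with bases read from the NCBI dm6 FASTA. Sites on arm 2R and the smaller contigs were not used here. A summit was assigned to a promoter window (1000 bp upstream to 100 bp downstream of a coding start), exon, intron or intergenic sequence, in that order. Rates were compared by an exact conditional binomial test and shares by Fisher's exact test, with Wilson or Newcombe 95% intervals, Benjamini-Hochberg adjustment within each family and a threshold of 0.05. All treat summits as independent. The tests were checked on simulated counts and sequences drawn independently, which cannot show how clustered summits affect the p-values. Alternatives were the other list, score minima of 5, 10 and 20, each arm left out, the proximal 5 Mb left out, runs of summits within 500 bp merged, summits of both lists, and other windows. The named genes are the 10 highest summits, the 5 genes with most summits, the members of 10 gene lists and genes nearest to the highest summits outside UTRs. Genes named for their 3′ UTR summits and the split of exon summits were chosen after their values were seen. Members and lists were chosen with earlier results of these data known. Python 3.11.15, NumPy 2.4.6, pandas 2.3.3, SciPy 1.17.1 and matplotlib 3.10.9 were used.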

Additional observations from a re-analysis of the deposited data

How the results depend on the processing

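No paired analysis was possible because neither summit list separates the replicate libraries. For the same reason no replicate was left out. Values are ratios or differences in percentage points, X over or minus autosomes.

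The higher exon and lower intergenic shares and the lower share of scores of 20 or more kept their direction under every alternative run, and lost their p under 0.05 in 1 case each for the first pair (score of at least 20: 2.67 and −1.58). The 3′ UTR ratio of 1.59 was weaker there alone (1.47). The density ratio passed under 6 alternatives (0.900 and 0.852 at scores of at least 10 and 20, 0.944 without 2L, 0.945 without 3L, 0.922 without the proximal 5 Mb, 0.947 with runs merged) and was 1.031 against input. Summits per gene fell to 1.01 and 0.961 at scores of at least 10 and 20 and 1.036 without 2L. Genes with a promoter summit gave 3.39 against input, 3.13 without 3R, and −0.00979 and −0.434 at scores of at least 10 and 20.

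The share found in both lists gave −4.05 from the input list, and passed with runs merged (2.08), at 500 bp (1.68) and without 2L (1.98). The promoter share, 0.344, changed sign with runs merged (−0.0624), against input (−0.85), for summits of both lists (−0.0871) and at a score of at least 5 (−0.635). The share within 50 bp of a start, 0.146, did so against input (−0.575), for both lists (−0.215), at a score of at least 5 (−0.29), without 3L (−0.152), 3R (−0.134) or the proximal 5 Mb (−0.217). The head-to-head share was −0.173 with starts at most 500 bp apart. None of these sign changes concerned a value past the threshold in both settings.

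CGATA lost its call at a score of at least 20 (2.90) and in 25 bp windows (1.01), and TATCGATA against input (0.397), for both lists (0.524) and at a score of at least 20 (1.16). In 100 bp windows GGTCACACT (1.00) and TATAAA (−1.79) passed. CACACA changed sign against input (0.451), at scores of at least 10 (0.0823) and 20 (0.264), in 100 bp windows (1.08) and without 3R (0.116), as did GAGAG against input (−0.117) and at 20 (−0.978). At a score of at least 20, 228 6-mers were more frequent at X summits and 0 differed from the autosomes, as did 0 against input and 0 in 25 bp windows.

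Of the results added later, the share of coding exons was −0.806 at a score of at least 20 and passed against input (1.82). The share of promoter summits with scores of 20 or more lost its call without 2L (−4.77), with runs merged (−4.24) and at a score of at least 10 (−3.33). This share was 1.68 and 0.82 in exons with promoter windows of 1000 and 500 bp, 0.371 in introns at a score of at least 10, and between genes −0.591 against input, −2.03 with 500 bp windows, −3.72 at a score of at least 5 and −0.29 without 2L. The cause of these changes was not tested.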

Other observations

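The longest stretches of X without a summit against the IgG control held genes as well. The longest ran 815.3 kb from position 21629647 to 22444903, with 21 protein-coding genes and no summit against input either. The next, 417.9 kb from 4131277 to 4549128, held 27 protein-coding genes, among them the adhesion molecule gene Fas2, and 2 summits against input. A stretch of 358.1 kb from 2738834 to 3096971 held 22 genes, among them the eye pigment transporter gene w, with 1 summit against input. A stretch of 335.2 kb from 14247685 to 14582864 held 15 genes, among them na, and the fifth was 306.9 kb long with 4 genes and no summit against input. Mappability was not measured here, so sequence that unique reads cannot cover and sequence without Dwg cannot be told apart in these stretches.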
